A study of Mus musculus with 16 samples.

Results

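The genes described here are 33 mouse genes of fatty acid uptake and mitochondrial beta-oxidation, chosen as a list of names with earlier results of these data known. They were matched to the arrays through the RefSeq accession of each probe. All 33 genes were found, on 48 of the 56605 distinct probes, and all 33 were among the 13725 genes tested. They were measured in RNA from the heart apex of 16 male C57Bl/6 mice, 1 Agilent 1-colour array per mouse and 4 mice in each of 4 groups. Every mouse carried a heterozygous MHC-mercremer transgene, which places a Cre recombinase that tamoxifen activates under the alpha-myosin heavy chain promoter of cardiomyocytes. Control mice carried the transgene alone, AKT1 KO and AKT2 KO mice also carried loxP sites around exons 6 and 7 of Akt1 or exons 5 and 6 of Akt2, and AKT1+AKT2 DKO mice carried both floxed genes. All 4 groups were given 500 µg of hydroxytamoxifen a day for 5 days at 3 months of age, and the apex was collected 21 days after the induction. The sample titles call these hearts untreated, and the treatment protocol names no treatment after the inducer. Deletion is directed to cardiomyocytes, while the apex also holds endothelial cells, fibroblasts and immune cells that this promoter does not target, and no group carried floxed alleles without Cre. The labels do not say whether these mice were littermates.

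Long-chain fatty acids are the main fuel of the adult heart. They are freed from lipoproteins, cross the sarcolemma, are bound in the cytosol, are joined to coenzyme A, pass into mitochondria as carnitine esters and are shortened there by repeated rounds of dehydrogenation, hydration, a second dehydrogenation and thiolysis. AKT1 and AKT2 are kinases of the insulin and growth factor pathway, which in muscle favours glucose uptake and use. Nuclear receptors of the PPAR and ERR families, with the coactivators PGC-1alpha and PGC-1beta, are known to drive the transcription of many of these genes. This is background knowledge and not a result of these arrays.

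Values are log2 of the intensity after background subtraction, minus the 75th percentile of the same array, so that 0 is the 75th percentile and 1 unit is a 2-fold step. A level can be compared between hearts for 1 probe, but not between genes, since probes differ in how they bind. The 33 probes used were well above background and unsaturated on all 16 arrays. A gene is called when its limma p-value, adjusted by the Benjamini-Hochberg method over all 13725 genes, is under 0.05. The 75th percentile of intensity was 492.1 to 809.4 over the arrays, and 43.11 to 54% of probes were well above background. As a check of the labels, Akt2 read 4.83 to 4.98 in the 4 controls, 2.43 to 2.64 after deletion of Akt2 alone and 2.82 to 3.04 after deletion of both genes, whereas the Akt1 probe (4.86 to 5.43 over all 16 arrays) may lie outside the deleted exons and checks nothing. All 12 cardiomyocyte markers were well above background on 16 arrays.

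A pair of hearts stood apart from their groups in the medians of these same 33 genes. In DKO replicate 3 the median of the 33 genes was -0.700 against the control mean, where DKO replicates 1, 2 and 4 had medians of -1.10, -1.17 and -1.23. AKT1 KO replicate 1 had a median of -0.459 against the control mean, while the other 3 AKT1 KO hearts had -0.108, -0.189 and -0.075. Counts that these hearts move are given below with and without them. Because the hearts were singled out by the 33 genes themselves, the counts without them are a description and not a separate test.

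In hearts with both kinase genes deleted most steps of the pathway were lower. Of the 33 genes, 28 were called lower in AKT1+AKT2 DKO than in control hearts and 0 higher, where 21.2% of all genes tested were called lower, 24.4% higher and 45.6% in either direction. Among them 17 had fallen at least 2-fold, against 4.63% of all genes, and in 25 all 4 DKO hearts lay below all 4 control hearts, against 20.6%. The median log2 difference of the 33 genes was -1.03 and that of all genes 0.017. The largest falls were in Cpt2, the inner carnitine palmitoyltransferase (4.24-fold), and Ech1, a dienoyl-CoA isomerase (4.16-fold). The 5 genes that were not called were Cd36, Slc27a1, Lpl, Pnpla2 and Cpt1a, of which 3 act in uptake. Without DKO replicate 3 the count was 31 called lower (23.1% of all genes) with a median of -1.17, and Cd36, Slc27a1 and Cpt1a joined the list. Leaving out a heart that is high in these genes favours larger falls, so this count is a description. In whole tissue fewer cardiomyocytes and less RNA per cardiomyocyte cannot be told apart, and marker values are given beside the gene lists further on.

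**Figure D1:**
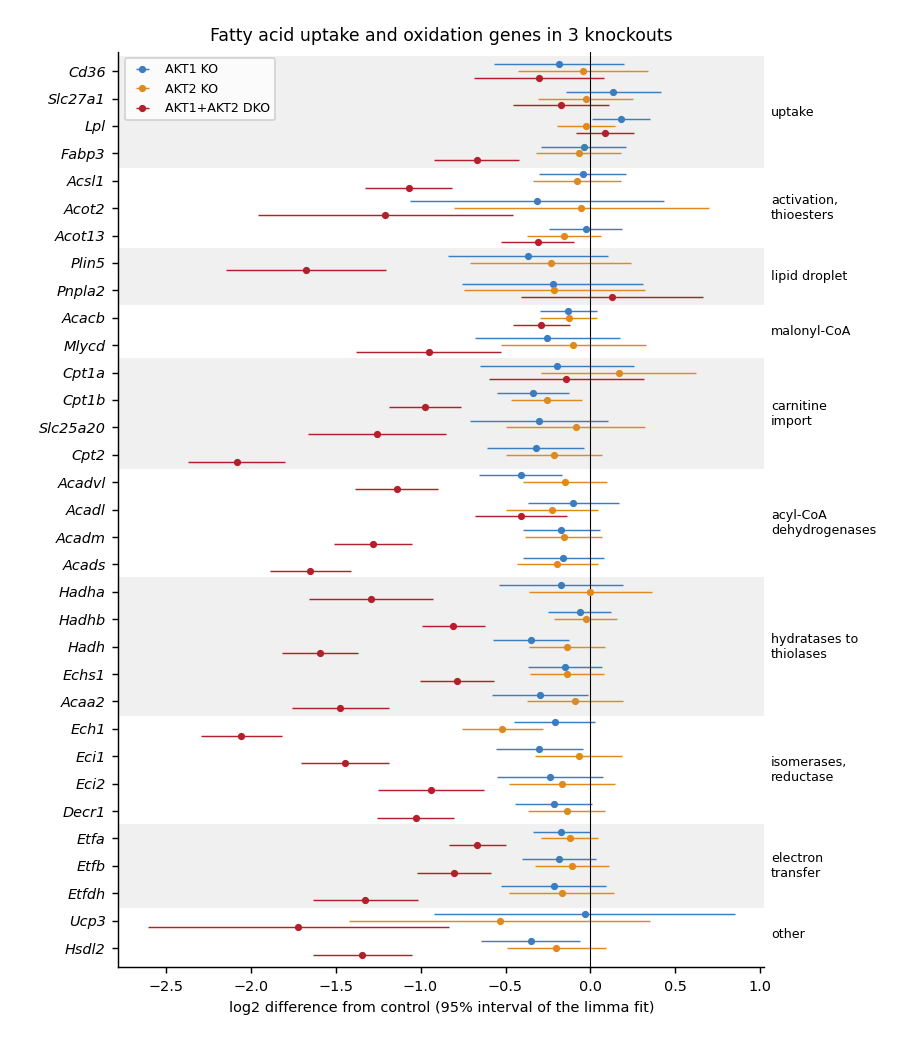
Log2 difference from control of each of the 33 genes in each of the 3 knockouts, with the 95% interval of the limma fit (n = 4 per group); genes are ordered by step from uptake at the top to electron transfer, with Ucp3 and Hsdl2 last. Most DKO points lie far left of 0, down to -2.08 for Cpt2, while the single knockouts stay between -0.54 and 0.18.

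RefSeq promoter windows were set beside the members that moved together, because PPAR and ERR receptors bind variants of the hexamer AGGTCA. The windows hold the 250 bases upstream of each start, build GRCm38.p6, and 28 of the 33 genes had at least 1 (32 windows). AGGTCA on either strand (TGACCT on the other) was found in 7 of the 32 windows (21.9%), against 14% of 32851 windows of all genes. Those 7 belonged to Cd36, Plin5, Cpt1a, Acadvl, Acadm, Echs1 and Ucp3, of which 5 were called lower in DKO hearts and 2 (Cd36 and Cpt1a) were not. The direct repeat of AGGTCA with 1 base between (known as DR1) was in 0 of the 32 windows (0.0335% of all windows), TNAAGGTCA in 0 (1.14%) and the forkhead motif GTAAACA in 0 (3.17%), each searched on both strands; AGGTCA is part of the first 2 of these motifs. A match is only a run of letters in the window. The windows below are written 5′ to 3′ along the gene and end at the base before the start, with each AGGTCA or TGACCT in capitals. They show Ucp3 and Plin5, which were among the 5 largest falls, Acadm, which was low in every DKO heart, and Cd36 and Cpt1a, which were not called.
Ucp3 (chr7:100472741-100472990, plus strand): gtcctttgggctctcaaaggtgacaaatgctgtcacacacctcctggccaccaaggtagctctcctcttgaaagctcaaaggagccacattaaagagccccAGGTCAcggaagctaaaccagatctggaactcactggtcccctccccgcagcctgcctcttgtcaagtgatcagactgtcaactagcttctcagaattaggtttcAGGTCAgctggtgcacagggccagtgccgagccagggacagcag
Plin5 (chr17:56117549-56117798, minus strand): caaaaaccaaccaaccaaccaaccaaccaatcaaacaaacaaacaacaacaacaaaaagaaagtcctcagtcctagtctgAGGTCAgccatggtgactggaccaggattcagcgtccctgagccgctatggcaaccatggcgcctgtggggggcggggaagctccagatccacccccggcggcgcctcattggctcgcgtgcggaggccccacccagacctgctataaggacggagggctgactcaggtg
Acadm (chr3:153944644-153944893, minus strand): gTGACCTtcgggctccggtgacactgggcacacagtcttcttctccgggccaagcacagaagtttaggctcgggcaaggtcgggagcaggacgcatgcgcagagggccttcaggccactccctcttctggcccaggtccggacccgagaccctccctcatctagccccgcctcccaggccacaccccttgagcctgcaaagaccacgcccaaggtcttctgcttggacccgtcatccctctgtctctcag
Cd36 (chr5:17835897-17836146, minus strand): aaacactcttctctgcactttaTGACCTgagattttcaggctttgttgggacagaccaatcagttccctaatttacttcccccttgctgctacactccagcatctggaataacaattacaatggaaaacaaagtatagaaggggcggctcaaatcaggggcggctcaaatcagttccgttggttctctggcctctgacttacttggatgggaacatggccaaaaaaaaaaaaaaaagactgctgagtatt
Cpt1a (chr19:3323051-3323300, plus strand): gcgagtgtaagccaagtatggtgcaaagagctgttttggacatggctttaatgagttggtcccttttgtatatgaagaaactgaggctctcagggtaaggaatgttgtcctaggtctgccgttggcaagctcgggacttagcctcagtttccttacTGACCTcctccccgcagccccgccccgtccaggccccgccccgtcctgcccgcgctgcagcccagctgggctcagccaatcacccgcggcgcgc

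Of the 4 uptake genes 1 was called, and their median difference was -0.238. Cd36, the main fatty acid translocase of the sarcolemma (NM_007643, chromosome 5), read 5.22, 5.13, 5.04 and 5.12 in control hearts and 4.59, 4.60, 5.57 and 4.53 in DKO hearts. DKO replicate 3 lay above every control heart and the other 3 DKO hearts below every one, and the difference of -0.30 (95% interval -0.69 to 0.081) was not called (adjusted p = 0.183). Without DKO replicate 3 it was -0.55 ± 0.086 (SE, adjusted p = 0.000136). Slc27a1, the fatty acid transport protein FATP1 (NM_011977, chromosome 8), read 2.22, 2.19, 1.95 and 2.06 in control and 1.82, 1.89, 2.35 and 1.67 in DKO hearts, with replicate 3 again on top. Its difference was -0.17 (95% interval -0.45 to 0.11, adjusted p = 0.3), and -0.31 ± 0.10 without replicate 3 (adjusted p = 0.0199). Lpl, the lipase that frees fatty acids from lipoproteins (NM_008509, chromosome 8), was 8.03 to 8.12 in control and 8.07 to 8.27 in DKO hearts, a difference of 0.087 (95% interval -0.084 to 0.26, adjusted p = 0.396) that was called higher after quantile normalization and with the authors' values. None of these 3 genes was called. Fabp3, the cytosolic fatty acid carrier of heart muscle (NM_010174, chromosome 4), read 8.78 to 9.06 in control and 8.14 to 8.42 in DKO hearts with no overlap, and fell by 0.67 ± 0.12 log2 units (SE, adjusted p = 0.000339). Scaled to cardiomyocyte markers, as described further on, its difference was -0.22 ± 0.10 and not called (adjusted p = 0.0624). In AKT1 KO and AKT2 KO hearts the differences from control were -0.19 and -0.045 for Cd36, 0.13 and -0.029 for Slc27a1, 0.18 and -0.026 for Lpl, and -0.040 and -0.070 for Fabp3.

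The acyl-CoA synthetase of the list and both of its thioesterases were lower in DKO hearts. Acsl1 encodes the main long-chain acyl-CoA synthetase of the heart, which commits fatty acids to metabolism (NM_007981, chromosome 8). Its values were 6.46, 6.57, 6.40 and 6.51 in control and 5.34, 5.29, 5.80 and 5.22 in DKO hearts, and 6.22, 6.58, 6.35 and 6.61 in AKT1 KO and 6.44, 6.28, 6.45 and 6.45 in AKT2 KO hearts. All 4 DKO hearts lay below the other 12, and the fall from control was 1.07 ± 0.12 (2.1-fold, adjusted p = 7.78e-06), beside -0.045 and -0.079 in AKT1 KO and AKT2 KO hearts. Acot2, a mitochondrial thioesterase that releases fatty acids from coenzyme A (NM_134188, chromosome 12), read 3.55, 3.64, 3.38 and 3.35 in control and 1.71, 2.00, 3.78 and 1.61 in DKO hearts. DKO replicates 1, 2 and 4 were far below every control heart and replicate 3 was above every one of them. The fall of 1.21 ± 0.35 was called (adjusted p = 0.0114), but not when only the 8 arrays compared were fitted; without replicate 3 it was 1.71 ± 0.15 (adjusted p = 1.04e-06). Acot13, a smaller mitochondrial thioesterase (NM_025790, chromosome 13), read 7.53 to 7.78 in control and 7.05 to 7.55 in DKO hearts, a called fall of 0.31 ± 0.10 (adjusted p = 0.0214) whose groups overlap by 1 DKO heart. Its single-knockout differences were -0.029 and -0.16, and those of Acot2 -0.31 and -0.054, in AKT1 KO and AKT2 KO hearts.

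The 2 lipid droplet genes differed in outcome. Plin5 coats cardiac lipid droplets and links them to mitochondria (NM_001077348, chromosome 17). It read 5.98, 5.95, 5.84 and 5.93 in control and 3.98, 4.09, 5.16 and 3.77 in DKO hearts, and fell by 1.67 ± 0.22 (3.19-fold, adjusted p = 3.25e-05). Even the highest DKO heart, replicate 3, stayed below every control heart. Pnpla2, the triglyceride lipase ATGL (NM_001163689, chromosome 7), read 5.52, 5.47, 5.57 and 5.51 in control and 5.35, 5.29, 6.72 and 5.22 in DKO hearts. Here DKO replicate 3 stood more than 1 unit above every other array of the study and the other 3 DKO hearts slightly below control. The difference of 0.13 (95% interval -0.41 to 0.66) was not called (adjusted p = 0.707), and turned to -0.23 ± 0.10 without that heart (adjusted p = 0.0698). Differences in AKT1 KO and AKT2 KO hearts were -0.37 and -0.23 for Plin5 and -0.22 and -0.21 for Pnpla2.

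Malonyl-CoA, the inhibitor of carnitine import, is made by acetyl-CoA carboxylase and removed by malonyl-CoA decarboxylase, and both genes were lower in DKO hearts. Mlycd, the decarboxylase (NM_019966, chromosome 8), was 5.49 to 5.56 in control hearts and 4.42, 4.35, 5.39 and 4.12 in DKO hearts. All 4 lay below control, replicate 3 by the least, and the fall was 0.95 ± 0.20 (1.93-fold, adjusted p = 0.00137). Acacb, the mitochondrial carboxylase of muscle (NM_133904, chromosome 5), read 5.04 to 5.30 in control and 4.82 to 4.92 in DKO hearts, a small called fall of 0.29 ± 0.078 (adjusted p = 0.00741) that was not called with normexp background correction or as the mean of its 2 probes. In AKT1 KO and AKT2 KO hearts Mlycd differed by -0.25 and -0.10 and Acacb by -0.13 and -0.13.

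Carnitine import held the largest fall and 1 of the 5 uncalled genes. Cpt2, which turns acylcarnitines back into acyl-CoA on the inner membrane (NM_009949, chromosome 4), read 6.42, 6.21, 6.11 and 6.20 in control and 4.08, 4.17, 4.51 and 3.86 in DKO hearts. The single knockouts read 5.61, 6.06, 6.05 and 5.93 (AKT1 KO) and 6.11, 5.89, 5.97 and 6.12 (AKT2 KO). No DKO heart came within 1 unit of any other heart, and the fall from control was 2.08 ± 0.13 (4.24-fold, adjusted p = 4.25e-08); the single-knockout differences were -0.32 and -0.21. Cpt1b is the muscle form of the outer-membrane enzyme that controls entry (NM_009948, chromosome 15). It read 5.20, 5.02, 4.86 and 4.99 in control, 4.06, 3.94, 4.09 and 4.09 in DKO, 4.40, 4.82, 4.73 and 4.76 in AKT1 KO and 4.73, 4.65, 4.77 and 4.88 in AKT2 KO hearts. DKO hearts were lowest without overlap, with a fall of 0.97 ± 0.10 (1.96-fold, adjusted p = 2.88e-06). All 4 AKT1 KO hearts also lay below all control hearts, by 0.34 ± 0.10 (unadjusted p = 0.00381, adjusted p = 0.218), and the AKT2 KO difference was -0.26 ± 0.10 (unadjusted p = 0.0194, adjusted p = 1); neither was called. Slc25a20, the carrier that exchanges acylcarnitine for carnitine (NM_020520, chromosome 9), read 2.30 to 2.46 in control and 0.93, 1.11, 1.84 and 0.65 in DKO hearts, and fell by 1.26 ± 0.19 (2.39-fold, adjusted p = 0.000107), with single-knockout differences of -0.30 and -0.087. Cpt1a, the liver form of the outer enzyme (NM_013495, chromosome 19), was 1.75, 2.10, 1.88 and 1.92 in control and 1.55, 1.67, 2.64 and 1.22 in DKO hearts, replicate 3 the highest of all 16 arrays. Its difference was -0.14 (95% interval -0.60 to 0.31, adjusted p = 0.613), and -0.43 ± 0.11 without that heart (adjusted p = 0.00454); it was -0.20 in AKT1 KO and 0.17 in AKT2 KO hearts.

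All 4 acyl-CoA dehydrogenases, which open each round by taking electrons from acyl-CoA of a given chain length, were called lower in DKO hearts. Acadvl, for very long chains (NM_017366, chromosome 11), read 8.17, 7.99, 7.90 and 8.04 in control and 6.92, 6.80, 7.02 and 6.80 in DKO hearts. In AKT1 KO hearts it read 7.27, 7.72, 7.77 and 7.70 and in AKT2 KO hearts 7.96, 7.68, 7.82 and 8.05. DKO hearts fell by 1.14 ± 0.11 (2.21-fold, adjusted p = 2.73e-06); all AKT1 KO hearts were also below control, with a difference of -0.41 ± 0.11 that was not called (adjusted p = 0.177), and the AKT2 KO difference was -0.15. Acadl, for long chains (NM_007381, chromosome 1), read 6.13 to 6.26 in control and 5.59 to 6.04 in DKO hearts, and fell least of the 4, by 0.41 ± 0.13 (adjusted p = 0.016), beside -0.10 and -0.23 in the single knockouts. Acadm, for medium chains (NM_007382, chromosome 3), read 7.47, 7.47, 7.38 and 7.48 in control, 6.37, 6.25, 5.84 and 6.22 in DKO, 7.06, 7.35, 7.26 and 7.45 in AKT1 KO and 7.28, 7.20, 7.36 and 7.32 in AKT2 KO hearts. Here DKO replicate 3 was the lowest of all, and the fall was 1.28 ± 0.11 (2.43-fold, adjusted p = 5.39e-07) against -0.17 and -0.16 in the single knockouts. Acads acts on short chains (NM_007383, chromosome 5). Its values were 4.96, 4.85, 4.74 and 4.84 in control, 3.29, 3.25, 3.15 and 3.11 in DKO, 4.29, 4.72, 4.94 and 4.80 in AKT1 KO and 4.73, 4.57, 4.63 and 4.68 in AKT2 KO hearts. The 4 DKO hearts lay close together, all below the other 12, and fell by 1.65 ± 0.11 (3.14-fold, adjusted p = 7.26e-08); single-knockout differences were -0.16 and -0.19.

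The 5 genes of the hydration, second dehydrogenation and thiolysis steps were all called lower in DKO hearts, with a median of -1.29. Hadha and Hadhb encode the 2 subunits of the mitochondrial trifunctional protein, which carries out these 3 reactions on long chains. Hadha (NM_178878, chromosome 5) read 4.38 to 4.59 in control and 3.07, 3.20, 3.60 and 2.97 in DKO hearts, and fell by 1.29 ± 0.17 (2.45-fold, adjusted p = 3.13e-05), and differed by -0.17 and -0.00064 in AKT1 KO and AKT2 KO hearts. Hadhb (NM_001289798, chromosome 5) read 7.81, 7.76, 7.73 and 7.87 in control, 6.94, 7.04, 7.10 and 6.85 in DKO, 7.50, 7.80, 7.74 and 7.88 in AKT1 KO and 7.71, 7.70, 7.77 and 7.87 in AKT2 KO hearts. It fell by 0.81 ± 0.086 in DKO hearts (1.75-fold, adjusted p = 4.84e-06), beside -0.063 and -0.029 in the single knockouts. Hadh, the hydroxyacyl-CoA dehydrogenase for shorter chains (NM_008212, chromosome 3), read 6.01, 5.97, 5.73 and 5.83 in control and 4.36, 4.44, 4.08 and 4.29 in DKO hearts. AKT1 KO hearts read 5.31, 5.60, 5.57 and 5.66 and AKT2 KO hearts 5.95, 5.68, 5.65 and 5.70. Every DKO heart lay below every other heart, a fall from control of 1.59 ± 0.10 (3.02-fold, adjusted p = 5.36e-08); AKT1 KO hearts did not overlap control either (-0.35 ± 0.10, adjusted p = 0.229, not called), and AKT2 KO hearts differed by -0.14. Echs1, the short-chain enoyl-CoA hydratase (NM_053119, chromosome 7), read 5.69 to 5.84 in control and 4.82 to 5.21 in DKO hearts, a fall of 0.79 ± 0.10 (adjusted p = 2.81e-05), with -0.15 and -0.14 in the single knockouts. Acaa2, the thiolase that releases acetyl-CoA (NM_177470, chromosome 18), read 8.62, 8.43, 8.32 and 8.51 in control, 6.96, 7.21, 7.23 and 6.59 in DKO, 7.90, 8.29, 8.26 and 8.25 in AKT1 KO and 8.47, 8.26, 8.38 and 8.41 in AKT2 KO hearts. Its fall in DKO hearts was 1.47 ± 0.13 (2.77-fold, adjusted p = 9.96e-07), without overlap, beside -0.30 and -0.092.

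Double bonds of unsaturated fatty acids need extra enzymes, and all 4 genes of that kind were called lower in DKO hearts. Ech1, which moves double bonds in dienoyl-CoA (NM_016772, chromosome 7), read 7.81, 7.67, 7.49 and 7.72 in control and 5.52, 5.64, 5.85 and 5.44 in DKO hearts. AKT1 KO hearts read 7.19, 7.61, 7.56 and 7.49 and AKT2 KO hearts 7.16, 7.03, 7.12 and 7.30. The DKO hearts fell by 2.06 ± 0.11 (4.16-fold, adjusted p = 1.07e-08), and all 4 AKT2 KO hearts lay between the DKO and the control hearts. Eci1, an enoyl-CoA isomerase (NM_010023, chromosome 17), read 6.85, 6.94, 6.75 and 6.91 in control, 5.63, 5.57, 5.06 and 5.41 in DKO, 6.26, 6.71, 6.60 and 6.68 in AKT1 KO and 6.80, 6.75, 6.78 and 6.85 in AKT2 KO hearts. It fell by 1.44 ± 0.12 in DKO hearts (2.72-fold, adjusted p = 5.21e-07), lowest in replicate 3; the single-knockout differences were -0.30 and -0.068. Eci2, its relative in mitochondria and peroxisomes (NM_011868, chromosome 13), read 5.56 to 5.63 in control and 4.34 to 5.23 in DKO hearts, and fell by 0.94 ± 0.15 (adjusted p = 0.00013), against -0.24 and -0.17 in the single knockouts. Decr1 is the dienoyl-CoA reductase (NM_026172, chromosome 4). It read 7.24, 7.12, 6.97 and 7.16 in control, 5.95, 6.10, 6.40 and 5.92 in DKO, 6.77, 7.06, 6.82 and 6.97 in AKT1 KO and 7.03, 6.89, 6.93 and 7.07 in AKT2 KO hearts, and DKO hearts fell by 1.03 ± 0.11 (2.04-fold, adjusted p = 3.43e-06). In AKT1 KO and AKT2 KO hearts it differed from control by -0.22 and -0.14.

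Electrons taken by the acyl-CoA dehydrogenases pass through the flavoprotein ETF and its oxidoreductase to ubiquinone, and these 3 genes also fell. Etfa, the alpha subunit (NM_145615, chromosome 9), read 7.13, 7.07, 6.97 and 7.01 in control, 6.56, 6.27, 6.34 and 6.34 in DKO, 6.72, 6.94, 6.85 and 6.99 in AKT1 KO and 6.97, 6.86, 6.91 and 6.95 in AKT2 KO hearts. The fall in DKO hearts was 0.67 ± 0.079 (1.59-fold, adjusted p = 1.22e-05), and -0.17 and -0.12 were the single-knockout differences. Etfb, the beta subunit (NM_026695, chromosome 7), read 8.37 to 8.64 in control and 7.58 to 7.75 in DKO hearts, and fell by 0.81 ± 0.10 (adjusted p = 2.2e-05), against -0.18 and -0.11. Etfdh, the oxidoreductase (NM_025794, chromosome 3), moved most. It read 6.27, 6.15, 6.09 and 6.18 in control, 4.72, 4.72, 5.38 and 4.56 in DKO, 5.71, 6.10, 5.93 and 6.09 in AKT1 KO and 6.01, 5.88, 6.04 and 6.09 in AKT2 KO hearts. Its fall was 1.32 ± 0.14 (2.5-fold, adjusted p = 6.01e-06) with single-knockout differences of -0.22 and -0.17.

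The last pair are Ucp3, a mitochondrial carrier of muscle that rises when fatty acid supply is high (NM_009464, chromosome 7), and Hsdl2, a dehydrogenase-like protein (NM_001301367, chromosome 4). Ucp3 read 2.45, 2.28, 2.27 and 2.52 in control and -0.10, 0.51, 2.40 and -0.17 in DKO hearts. DKO replicates 1, 2 and 4 lay far below control and replicate 3 within the control range. The fall of 1.72 ± 0.41 was called (3.29-fold, adjusted p = 0.0036), and was 2.30 ± 0.20 without replicate 3 (adjusted p = 8.71e-07). AKT2 KO hearts were 2.14, 2.20, 1.36 and 1.68, all below control (-0.54, 95% interval -1.42 to 0.35, adjusted p = 1), and AKT1 KO hearts differed by -0.035. Hsdl2 read 4.12, 4.06, 3.95 and 4.02 in control, 2.56, 2.75, 3.14 and 2.33 in DKO, 3.54, 3.82, 3.57 and 3.82 in AKT1 KO and 3.82, 3.74, 3.79 and 4.00 in AKT2 KO hearts. It fell by 1.34 ± 0.14 in DKO hearts (2.54-fold, adjusted p = 3.01e-06); the AKT1 KO difference of -0.35 ± 0.14, without overlap, was not called (adjusted p = 0.494) and the AKT2 KO difference was -0.20.

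Within the DKO group replicate 3 had its own pattern. It was the highest of the 4 DKO hearts in 23 of the 33 genes, where 38.5% of all genes have it highest, and the lowest in 7, where 40.9% of all genes have it lowest. It reached or passed the lowest control heart in 7 genes (57% of all genes), Cd36, Slc27a1, Lpl, Acot2, Pnpla2, Cpt1a and Ucp3, while any other DKO heart did so in 2, Lpl and Acot13 (74.6% of all genes). The largest gaps between replicate 3 and the mean of the other 3 DKO hearts were 2.33 for Ucp3, 2.01 for Acot2, 1.44 for Pnpla2, 1.22 for Plin5, 1.16 for Cpt1a, 1.10 for Mlycd and 0.99 for Cd36. On the other side Eci1 (-0.48), Acadm (-0.44), Acot13 (-0.36), Hadh (-0.28) and Echs1 (-0.22) were lowest in that same heart, so it was not nearer to control throughout. Some genes outside the 33 were picked here because replicate 3 was their highest DKO heart, so their values are a description. Pdk4, the kinase that shuts pyruvate dehydrogenase, read 3.35, 4.70, 7.69 and 3.01 in DKO replicates 1 to 4, with a control mean of 5.08. Angptl4, an inhibitor of Lpl, read 1.06, 3.71, 6.09 and -0.17 against a control mean of 2.94. Plin2, a lipid droplet coat protein, read 2.35, 2.47, 4.72 and 2.28 against 2.73. Replicate 2 lay above the control mean for Angptl4 and below it for Pdk4 and Plin2, replicates 1 and 4 lay below it for all 3, and none of the 3 genes was called between DKO and control hearts (adjusted p = 0.697, 0.85 and 0.672).

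**Figure D2:**
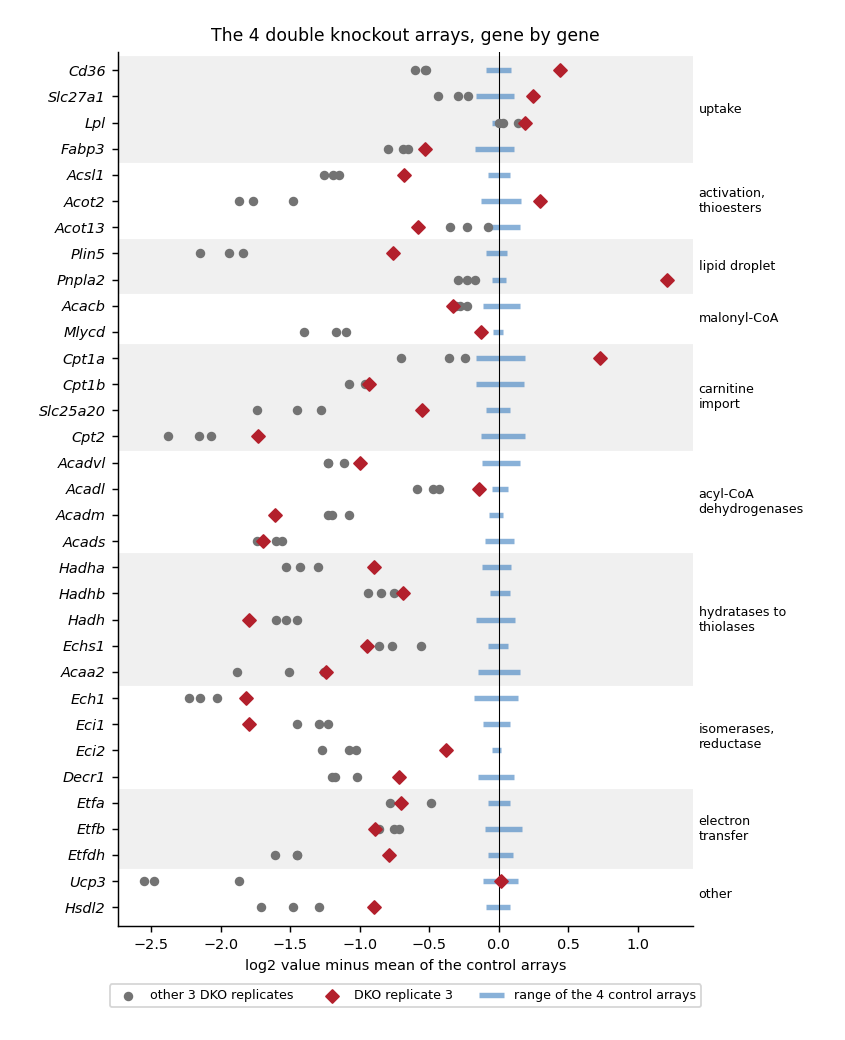
Each DKO heart against the control mean (log2), gene by gene; grey circles are DKO replicates 1, 2 and 4, the red diamond is replicate 3, and the blue bar is the range of the 4 control hearts. Replicate 3 lies to the right of the other 3 for Ucp3, Acot2, Pnpla2, Plin5, Cpt1a, Mlycd and Cd36, and to their left for Eci1, Acadm and Hadh.

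With either kinase gene deleted alone, no gene of the pathway passed the test over genes. In AKT1 KO hearts 0 of the 33 genes were called (0.794% of all genes), and 9 had an unadjusted p under 0.05 (7.41% of all genes). These 9 were Lpl, Cpt1b, Cpt2, Acadvl, Hadh, Acaa2, Eci1, Etfa and Hsdl2, all but Lpl lower. The difference was below 0 in 31 genes (59.7% of all genes), with a median of -0.198 beside -0.032 over all genes. In 10 genes all 4 AKT1 KO hearts lay below all control hearts, against 6.29% of all genes. AKT1 KO replicate 1 was the lowest of its group in 31 of the 33 (54.8% of all genes), and its cardiomyocyte markers had a median of -0.240 against control, where the other 3 hearts had -0.038, 0.139 and -0.001; their part in the result was not tested. Without that heart 0 genes were called and the median was -0.118. When arrays were weighted by quality, 4 genes were called, beside 822 of all 13725 genes. Cpt1b (-0.26, adjusted p = 0.0491), Acadvl (-0.33, 0.02) and Hadh (-0.28, 0.0395) were lower and Lpl (0.28, 0.00323) was higher. The 3 kept probes of Lpl gave 0.18, -0.50 and -0.24 in AKT1 KO hearts, and the second was called lower in the fit over probes (adjusted p = 0.0395), the 1 of 48 member probes called there, so no direction can be given for Lpl in these hearts.

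In AKT2 KO hearts 0 of 33 genes were called (0.131% of all genes) and 2 had an unadjusted p under 0.05 (3.23%). The difference was below 0 in 32 genes (57.7% of all genes), with a median of -0.137 beside -0.022 over all genes, and in 9 all AKT2 KO hearts lay below all control hearts (5.11%). Cpt1b and Ech1 were those with the lower p. Ech1 had the clearer separation, 7.16, 7.03, 7.12 and 7.30 in AKT2 KO against 7.81, 7.67, 7.49 and 7.72 in control hearts, a difference of -0.52 ± 0.11 (unadjusted p = 0.000343, adjusted p = 0.139). It was called with quantile normalization (adjusted p = 0.0248), with the authors' values (0.0307), with array weights (0.00176) and without DKO replicate 3 (0.0472), and the adjusted p ranged from 0.00176 to 1 over its 32 alternatives. Ech1 lies on chromosome 7, as does the floxed Akt2 gene, with 38 tested genes between them in the order of the GRCm38.p6 annotation. Of those 38 genes 3 were called in AKT2 KO hearts, 2 of them lower, and their median difference was -0.032. Between the single knockouts 0 of 33 genes were called (0.896% of all genes) and 3 had an unadjusted p under 0.05 (7.34%), Lpl (-0.21), Acadvl (0.26) and Ech1 (-0.31), given as AKT2 KO minus AKT1 KO. With array weights 2 were called, beside 849 of all 13725 genes. They were Lpl (-0.30, adjusted p = 0.00359) and Ech1 (-0.38, 0.0111). The Lpl difference ran from -0.2975 to 0.2545 over its 32 alternatives, so no direction can be given for Lpl between the single knockouts.

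**Figure D3:**
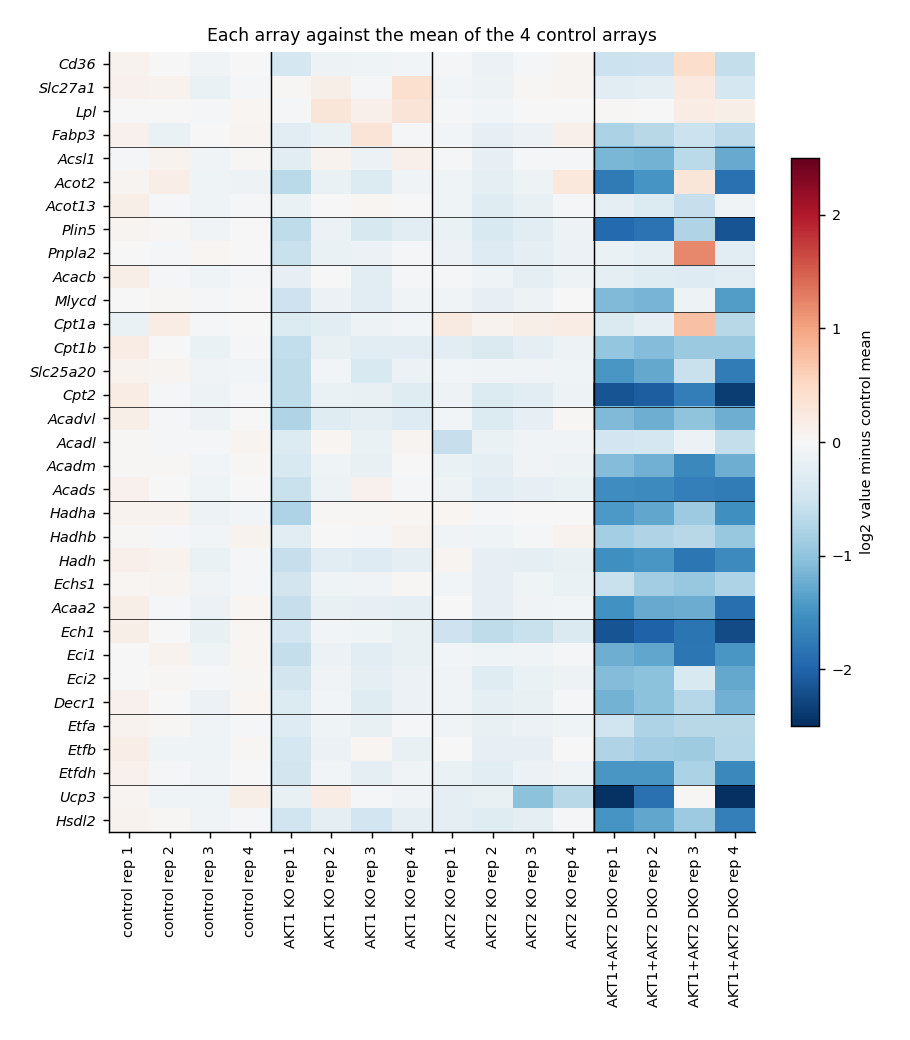
Heat map of the 33 genes (rows, in the order of the pathway) in all 16 hearts (columns), as log2 value minus the mean of the 4 control hearts, blue for lower and red for higher. The DKO columns are blue at most steps, with a paler column for replicate 3 (26 of 33 genes below the control mean), and AKT1 KO replicate 1 is the bluest column among the single knockouts, with a median of -0.459.

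Set against the single knockouts, the DKO hearts were lower in most of the same genes. Against AKT1 KO hearts 26 of 33 genes were called lower and 0 higher (20.3% and 26.7% of all genes), with a median of -0.744; against AKT2 KO hearts 25 were called lower and 0 higher (18.6% and 23.5%), with a median of -0.89. Cd36, Slc27a1, Lpl, Pnpla2, Acacb, Cpt1a and Acadl were called in neither comparison. Without DKO replicate 3 the counts were 28 against AKT1 KO hearts (median -0.917) and 28 against AKT2 KO hearts (median -1.01), with Cd36 and Slc27a1 then called lower in both, Cpt1a against AKT2 KO and Acadl against AKT1 KO hearts, where Acot13 lost its call (adjusted p = 0.0766). Leaving out DKO replicate 3 also raised the share of all genes called lower against control, from 21.2% to 23.1%. The shares of all genes against the single knockouts without that heart are not given here, so these counts are not read as particular to the 33 genes. Without AKT1 KO replicate 1 the count against AKT1 KO hearts was 27 (median -0.847), beside 2909 of all 13725 genes called lower. The call of Acadl against AKT1 KO hearts was gained in 9 of 32 alternatives. Acot13 was called against AKT1 KO but not against AKT2 KO hearts. The largest differences were in Ech1 (-1.85 ± 0.11), Cpt2 (-1.76 ± 0.13) and Ucp3 (-1.69 ± 0.41) against AKT1 KO hearts, and in Cpt2 (-1.87 ± 0.13), Ech1 (-1.54 ± 0.11) and Acads (-1.45 ± 0.11) against AKT2 KO hearts. These comparisons share the DKO arrays with the comparison against control. Acot2 was barely called against AKT1 KO hearts (adjusted p = 0.0487) and lost the call in 19 of 32 alternatives.

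The design also asks whether the double knockout differs from the sum of the single ones. The departure from that sum, counted from control, was called below 0 in 20 of the 33 genes and above 0 in none, where 10.1% of all genes were called below 0 and 26% in either direction. Its median was -0.673, beside 0.047 over all genes. Cpt2 departed most, by -1.55 ± 0.19 (adjusted p = 6.42e-05): the single differences of -0.32 and -0.21 sum to -0.54, and the DKO difference was -2.08. Ech1 (-1.33 ± 0.16, adjusted p = 5.37e-05), Acads (-1.29 ± 0.16, 6.76e-05), Hadha (-1.12 ± 0.24, 0.00378) and Hadh (-1.10 ± 0.15, 0.000142) followed among those called. Acsl1 departed by -0.95 ± 0.17 (0.00122), nearly its whole DKO difference, and Hadhb by -0.71 ± 0.12 (0.000866). Among genes that fell in DKO hearts, the departure was not called for Acot2, Acot13, Acacb, Mlycd, Cpt1b, Acadl, Eci2 and Ucp3; that of Cpt1b was -0.38 (95% interval -0.67 to -0.079, adjusted p = 0.0593) and that of Ucp3 -1.15 (95% interval -2.40 to 0.10). Without DKO replicate 3 the departure was called in 28 genes, after scaling to cardiomyocyte markers in 11 and on slide 2 alone in 0. Over all 13725 genes 601 were called below 0 after that scaling and 97 on slide 2 alone. The count over all genes without DKO replicate 3 is not given here, so the 28 is not read as particular to these genes.

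**Figure D4:**
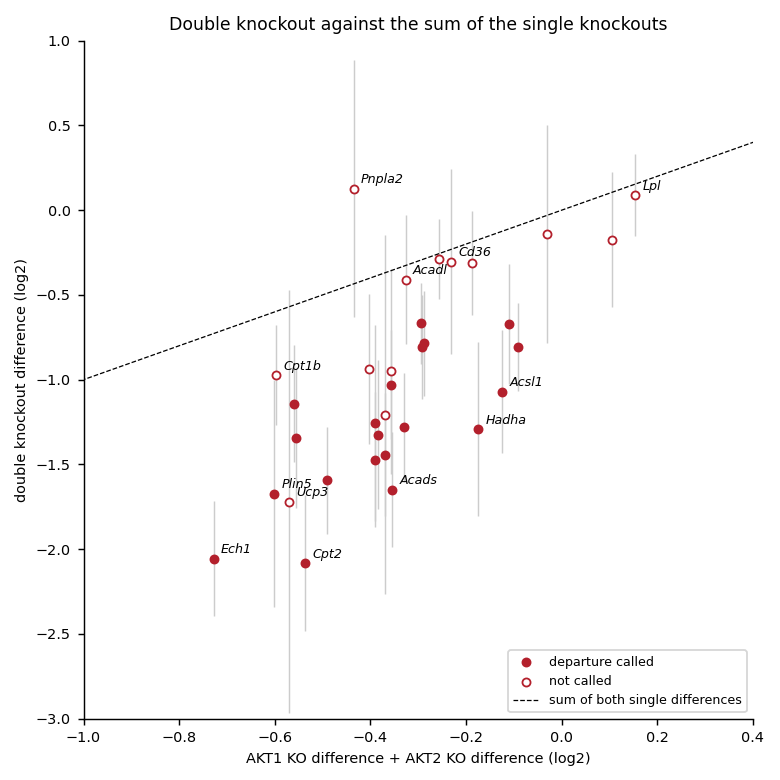
DKO difference from control against the sum of the AKT1 KO and AKT2 KO differences (log2) for the 33 genes; vertical bars span the 95% interval of the departure from the dashed line of equal values, and filled points are called. All but Pnpla2 lie below the line, with Cpt2 1.55 below it.

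Several genes were read by more than 1 probe. All 48 probes were kept, and 40 of them were called lower in DKO hearts and 0 higher in the fit over 26396 kept probes, of which 40% were called in either direction. Of the 13 genes with more than 1 kept probe, 11 had every probe called lower. The second Cpt2 probe gave -2.35 beside -2.08, the second Plin5 probe -1.75 beside -1.67, and the 3 Etfa probes -0.67, -0.66 and -0.78. Acacb was the exception among called genes, since its dim second probe differed by 0.010 (probe adjusted p = 0.988). The 3 Lpl probes gave 0.087, 0.25 and 0.26 in DKO hearts, and none was called.

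Genes around the pathway were counted from lists chosen by function, with earlier results of these data known. Their counts stand beside the 21.2% of all genes called lower and 24.4% called higher in DKO hearts. Of 18 genes listed as other mitochondrial fatty acid oxidation, 14 were called lower in DKO hearts and 0 higher (median -0.819). That list also holds genes of amino acid breakdown, such as Acad8, Acadsb and Hibch. Its count therefore does not stand for fatty acid oxidation alone. Among the lower genes were Crat, carnitine acetyltransferase (-1.21 ± 0.088, adjusted p = 1.42e-07), Acad8 (-0.89 ± 0.081), Slc22a5, the carnitine transporter (-1.03 ± 0.088), and Acat1, a mitochondrial thiolase (-0.97 ± 0.099). Peroxisomal oxidation genes were called lower in 13 of 16 and higher in 0 (median -0.481), with Pecr at -0.97 ± 0.096, Acaa1b at -1.03 ± 0.12, Phyh at -0.85 ± 0.11 and Abcd3 at -0.88 ± 0.14. Other uptake and lipoprotein genes were mixed: of 11, 5 were lower, including Got2 (-0.72 ± 0.094), Lmf1 (-0.84 ± 0.13) and Vldlr (-0.46 ± 0.078), and 1 was higher, Slc27a3 (0.73 ± 0.11). Acyl-CoA synthetases and thioesterases outside the 33 split too, 4 of 10 lower, among them Acot7 (-0.52 ± 0.10), Acot11 (-0.98 ± 0.19) and Acsl6 (-0.84 ± 0.20), and 3 higher, Acot9 (0.81 ± 0.18), Acsl4 (0.51 ± 0.13) and Acsl5 (0.41 ± 0.13). Of 16 lipid storage genes 6 were lower and 0 higher, and they include the triglyceride synthesis genes Dgat2 (-2.88 ± 0.14, adjusted p = 4.87e-09), Gpam (-1.14 ± 0.11) and Lpin1 (-0.95 ± 0.096) and the droplet gene Fitm1 (-1.61 ± 0.14). Among 23 regulators and fuel-switch genes 11 were lower and 1, Acaca, higher (0.31 ± 0.11); Ppara (-0.48 ± 0.11), Esrra (-0.61 ± 0.13), Ppargc1b (-0.92 ± 0.19) and Sirt3, a mitochondrial deacetylase (-1.01 ± 0.16), were lower.

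Genes of glucose use and of the later oxidative steps were lower as well. Of 23 genes of glucose uptake and glycolysis 16 were called lower and 2 higher in DKO hearts (median -0.486), with Mpc2, a pyruvate carrier subunit (-1.10 ± 0.094), Pfkm (-1.36 ± 0.17) and Pfkfb1 (-2.10 ± 0.21) lower. Slc2a1, the glucose transporter GLUT1, was higher by 1.68 ± 0.11 (adjusted p = 5.36e-08), and the other higher gene was Eno1 (0.30 ± 0.11). All 19 tricarboxylic acid cycle genes were called lower (median -0.627), among them Sucla2 (-1.51 ± 0.12), Cs (-0.69 ± 0.071), Dlst (-0.75 ± 0.082) and Idh3b (-0.87 ± 0.099). Of 46 oxidative phosphorylation genes 45 were lower and 0 higher (median -0.569), among them Uqcrc1 (-1.01 ± 0.094), Ndufa10 (-0.86 ± 0.081) and Ndufs8 (-1.01 ± 0.098). The median of the 33 genes, -1.03, was further from 0 than that of any of these 9 lists, but whether the lists differ was not tested. The 33 genes and the lists were chosen with earlier results of these data known, so this order is only a description. In AKT1 KO and AKT2 KO hearts 0 genes of these 9 lists were called by limma. Without DKO replicate 3 the counts lower in DKO hearts were 14 of 18 for other mitochondrial oxidation (2 higher) and 13 of 16 for peroxisomal oxidation (1 higher). They were 6 of 11 for uptake (1 higher), 4 of 10 for synthetases and thioesterases (3 higher) and 11 of 16 for lipid storage (0 higher). For regulators they were 13 of 23 (1 higher) and for glycolysis 17 of 23 (1 higher). For the tricarboxylic acid cycle they were 18 of 19 (0 higher) and for oxidative phosphorylation 44 of 46 (0 higher).

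Cell type markers moved as well. Of 12 cardiomyocyte markers 10 were called lower in DKO hearts (median -0.431), with a summed level of 12.18 to 12.36 in control and 11.83 to 12.1 in DKO hearts, and the lowest marker difference was -0.906 in Ryr2. All 9 fibroblast markers were called higher (median 0.728, summed level 7.607 to 7.69 against 8.274 to 8.719), as were 6 of 8 macrophage and leukocyte markers (median 0.554, 4.668 to 4.837 against 4.92 to 5.418). Of 10 endothelial markers 1, Kdr, was called lower and 0 higher (median 0.034, 6.854 to 7.047 against 6.803 to 7.06). Of 7 adipocyte markers 3 (Cidec, Cfd and Lep) passed the filter on dim probes while Adipoq and Plin1 did not; the summed level of those 3 was -0.967 to -0.472 in control and -0.586 to 0.439 in DKO hearts. All 3 were called in DKO hearts, Cidec (2.18 ± 0.56) and Cfd (2.31 ± 0.66) higher and Lep (-0.48 ± 0.14) lower. Cidec was well above background on only 5 arrays, and the filter keeps a probe that is so on every array of 1 group. For such a gene the filter itself favours a difference between groups, so no rise is concluded for Cidec from this call. Of 8 mural cell markers 2 were called lower, Acta2 (-0.49 ± 0.13) and Abcc9 (-0.65 ± 0.18), and 3 higher, Tagln, Cnn1 and Pdgfrb (list median 0.176, summed level 7.117 to 7.226 in control and 6.795 to 7.161 in DKO hearts). Of 5 atrial markers 4 were tested and 1 was called higher, Nppa, the natriuretic peptide gene that stressed ventricles also express (2.49 ± 0.27, adjusted p = 5.59e-06). The summed atrial level, most of it Nppa, was 6.485 to 7.126 in control, 8.039 to 8.467 in AKT1 KO, 6.391 to 7.825 in AKT2 KO and 9.096 to 9.454 in DKO hearts. In AKT1 KO hearts Nppa (1.47 ± 0.27) and Mybphl (3.60 ± 0.49) were called higher. Mybphl was well above background on only 4 arrays, the fewest with which a probe can pass the filter. No rise is therefore concluded for Mybphl from its call. The part of these marker changes in the falls of the 33 genes was not tested. A difference below that of Ryr2 was found in 20 of the 33 genes, a count that was not made over all genes and is therefore only a description. At the nearby cut of a called fall of at least 2-fold, 17 of the 33 genes passed, beside 4.63% of all genes. When each array was scaled to the mean of the 12 cardiomyocyte markers, 22 of the 33 genes were called lower and 1 (Lpl, 0.53 ± 0.086) higher in DKO hearts, and the median was -0.583. Over all 13725 genes 1004 were called lower and 8128 higher under that scaling. That scaling moved the median of all genes to 0.464, and the share of called genes that were lower went from 46.4% to 11%. Under that scaling 6 genes lost the call: Fabp3 (-0.22 ± 0.10), Acot2 (-0.76 ± 0.37) and Mlycd (-0.50 ± 0.22) lay below control, and Acot13, Acacb and Acadl above it, while Cpt2 (-1.64 ± 0.14), Ech1 (-1.61 ± 0.12), Acads (-1.20 ± 0.095) and Hadh (-1.15 ± 0.10) kept the largest called falls apart from Plin5 and Ucp3 (-1.23 ± 0.24 and -1.27 ± 0.44).

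**Figure D5:**
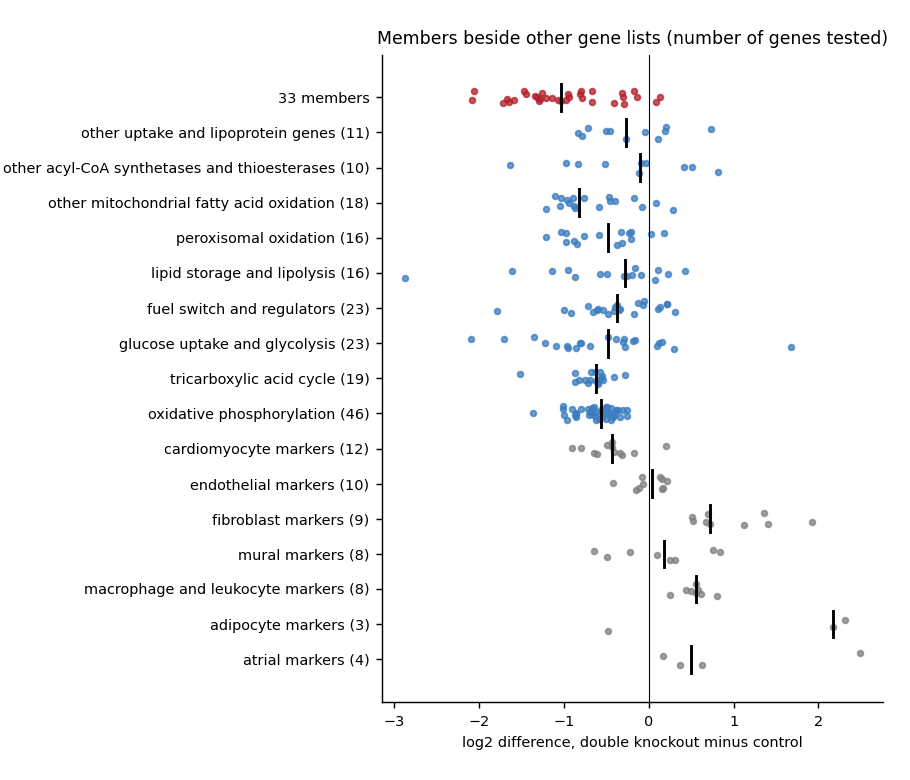
Log2 difference between DKO and control hearts for each gene of the 33 (red), of 9 lists of related metabolic genes (blue) and of 7 lists of cell type markers (grey), 1 point per gene with the list median as a bar. The bar of the 33 genes sits at -1.03, those of the tricarboxylic acid cycle and oxidative phosphorylation at -0.627 and -0.569, and the fibroblast markers at 0.728.

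The 16 arrays lay on 2 slides, each with 2 arrays of every group, and each group kept its own column of positions on the slide, so position and group cannot be told apart. Slide 1 alone gave 29 of the 33 genes called lower in DKO hearts (20.4% of all genes) with a median of -1.16. Slide 2, which holds DKO replicate 3, gave 19 (8.99%) with a median of -0.833. With slide as a block the count was 28 and the median -1.03. Within slide 2 the differences of Slc27a1, Pnpla2 and Cpt1a, none of them called, were above 0, as was that of Lpl on both slides.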

How the data were processed

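Total RNA of 16 heart apexes (100 ng each) was labelled with Cy3 and hybridised to Agilent 1-colour arrays. Per the file headers, the deposited scanner files hold spot intensities that Agilent Feature Extraction 12.0.3.1 background-subtracted, and no normalization between arrays was applied to them. The authors' deposited value table holds log2 values of the same arrays, centred on the median of each probe, with the normalization not given in the sources used here, and served as an alternative. Values were log2 of the processed intensity minus the 75th percentile of each array. A probe was kept if in 1 or more groups each of the 4 arrays had it well above background, outlier-flagged probes (118) were dropped, and the brightest kept probe stood for a gene. limma 3.58.1 in R 4.3.3 fitted 1 mean per group over 16 arrays (12 residual degrees of freedom), for 7 comparisons; adjusted p-values are Benjamini-Hochberg over 13725 genes and errors after ± are standard errors, with 4 arrays per group. Per the labels replicates are separate hearts, and their number limits the precision.

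The members and lists were chosen with earlier results of these data known. Genes given on every array were the 15 with the smallest adjusted p in any comparison; Cd36, Slc27a1, Lpl, Acot2, Plin5, Pnpla2, Mlycd, Cpt1a, Slc25a20, Hadha and Ucp3 were added after their values were seen, and up to 4 called genes of each other list with the smallest adjusted p are named; further list genes named were also added after their values were seen. Alternatives covered background correction, normalization, the filter, the probe rule, array weights, the prior, the samples fitted, slide, replicate block and each heart left out, and, chosen after seeing the data, scaling to cardiomyocyte markers. Same-numbered hearts were not treated as pairs: the labels give no pairing, and the correlations of their deviations over 24 pairs ran from -0.35 to 0.392 (median 0.142, against -0.0772 for other pairs) with 15 above 0.1. Same-numbered control, AKT2 KO and DKO arrays also shared slide and row. The file headers name build mm9; promoter windows are from RefSeq, build GRCm38.p6. Protein sequences were not used here.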

Additional observations from a re-analysis of the deposited data

Results flagged for a closer look

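In 20 genes the double knockout differed from control by more than both single knockouts together, by the limma test of that difference (log2, all adjusted over 13725 genes). The departures were -1.55 for Cpt2, -1.33 for Ech1, -1.29 for Acads, -1.12 for Hadha, -1.10 for Hadh, -1.08 for Acaa2, -1.08 for Eci1 and -1.07 for Plin5. They were -0.95 for Acsl1, -0.95 for Acadm, -0.94 for Etfdh, -0.87 for Slc25a20, -0.79 for Hsdl2, -0.71 for Hadhb and -0.67 for Decr1. The smallest called were -0.58 for Acadvl, -0.56 for Fabp3, -0.51 for Etfb, -0.50 for Echs1 and -0.37 for Etfa.

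In 9 of 132 groups of 4 values, 1 heart lay far from the other 3 (Dixon's test), where chance gives about 5%. DKO replicate 3 stood above its group in Cd36 (5.57) and Pnpla2 (6.72). AKT1 KO replicate 1 stood below its group in Acadvl (7.27), Hadha (3.72) and Acaa2 (7.90). AKT2 KO replicate 1 was low in Acadl (5.61) and high in Hadh (5.95), and AKT2 KO replicate 2 was low in Acsl1 (6.28). Control replicate 3 was low in Acadm (7.38).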

How the results depend on the processing

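The count of 28 genes lower in DKO than in control hearts stayed within 1.5 times under every alternative tried, from 19 (slide 2 alone) to 31 (array weights), and was 27 to 31 with each heart left out. Of the 28 genes 18 kept their call and direction under all 32 alternatives; Fabp3, Acot2, Acot13, Plin5, Acacb, Mlycd, Slc25a20, Acadl, Eci2 and Ucp3 lost the call under at least 1, most often slide 2 alone, which has 8 of the arrays. In AKT2 KO hearts the count was 1 with quantile normalization, the authors' values or array weights, and 0 to 1 with each heart left out (1 without DKO replicate 3); the gene was Ech1. With array weights 4 genes were called in AKT1 KO hearts (822 of all 13725 genes) and 2 between the single knockouts (849 of all genes). On slide 2 alone 10 genes were called between DKO and AKT1 KO hearts (2715 of all genes) and 0 departures from the sum (188 of all genes). Departures were called in 11 genes after scaling to cardiomyocyte markers, where 601 of all genes were called below 0. With each heart left out they were called in 18 to 28. Scaling to cardiomyocyte markers turned Acot13 (0.1352 against control, 0.1243 against AKT1 KO, 0.1961 against AKT2 KO), Acacb (0.1569 and 0.2466 against AKT1 KO) and Acadl (0.03778) above 0. Lpl in DKO against AKT1 KO hearts turned to 0.3141 under that scaling and to 0.3837 as the mean of its probes. The causes were not tested. The replicate block gave 28 genes in DKO hearts and 20 departures and, of the counts for the 33 genes, moved only that of DKO against AKT1 KO hearts (26 to 25); 9 of 16 arrays correlated best with their own number, a hint from the data only. Over all genes the DKO count was 6257, 2464 on slide 2 alone and 9132 after scaling to cardiomyocyte markers, and the AKT1 KO count 109, against 56 without the filter and 822 with array weights. Depth is not a limit for the 33 genes, all well above background on every array.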
